A study of Mus musculus with 4 samples.

Results

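Voltage-gated and related potassium, sodium and calcium channel subunits were examined in single cells of the embryonic mouse medial ganglionic eminence (MGE), the zone of the ventral telencephalon that gives rise to cortical interneurons and to projection neurons of the globus pallidus. The genes were chosen by symbol alone: those beginning with Kcn and a letter, with Scn and a digit, or with Cacna, Cacnb or Cacng. The rule gave 139 of the 32285 genes in the count matrices, and 5 of the 139 are non-coding transcripts named after a channel gene. Their levels were compared between progenitors and neurons, among neuron and progenitor subtypes, and between genotypes.

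Potassium channels set the resting potential and end the action potential, voltage-gated sodium channels start it, and voltage-gated calcium channels turn depolarization into calcium entry. Each pore is formed by alpha subunits, and beta, alpha2delta, gamma and cytoplasmic subunits change its gating or carry it to the membrane. Neural progenitors are electrically passive cells with a high potassium conductance, and newborn neurons acquire voltage-gated currents while they migrate.

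The study asked how loss of St18, a zinc finger transcription factor of the Myt family, alters MGE cells. The e14.5 embryos had heterozygous parents, and their strain is given as a mix of C57/BL6 and ICR. The null allele lacks exons 9 and 10 of St18 throughout the animal, after germline recombination of a conditional allele by E2a-Cre. MGE of null, St18 (−/−), and wild-type (WT) embryos of the same crosses was combined within each genotype before it was made into cell suspensions, giving 2 libraries of each genotype on the 10x Genomics platform. The number and sex of the combined embryos were not stated. The study calls its libraries biological replicates, and it describes its mutant and WT animals as littermates without saying which litters each library drew on, so p-values measure the spread between these libraries.

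The 4 libraries held 70991150 to 92984713 UMIs (unique molecular identifiers, here counted transcripts). Cells with at least 3000 UMIs and at most 10% mitochondrial UMIs were kept and doublet-like cells then removed, which left 3758 to 6279 cells per library, and 18267 in all. Clustering, from which every channel gene was left out, placed 10917 of them among neurons and 7046 among progenitors, and the other 304 were erythroid cells, microglia and oligodendrocyte precursors. Nkx2-1 or Lhx6, markers of the MGE, had a UMI in 83.7% to 88.5% of the neurons and progenitors of each library. UMIs were counted over the whole St18 gene and not its deleted exons, so the St18 level is no direct check of the labels. The study found St18 transcript still present in null samples, at lower levels in neurons, likely through some decay of the transcript. In neurons here St18 was 25.5 CPM (counts per 1000000 UMIs of the summed cells) in null replicate 1, 74.0 in null replicate 2 and 45 and 57.5 in the WT replicates. Null replicate 2 thus lay above both WT libraries. Cells with 3 or more Xist UMIs made up 35.3% and 64.7% of the null libraries and none of the WT libraries, so the sexes were not balanced between genotypes. The median neuron held 5472.5 to 8148.5 UMIs and the median progenitor 8271 to 12543, the highest of both in null replicate 2.

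Most channel genes that could be measured were higher in neurons than in progenitors. Of the 139 genes, 12 had no UMI in either class, 45 fell under the filter on low counts, and 82 were tested. Of these, 62 were higher in neurons, 12 were lower and 8 did not pass the test (edgeR quasi-likelihood F-test with the library as a block, adjusted p under 0.05 over all 13736 genes tested). Among all genes tested, 40.9% were higher in neurons and 39.6% were lower. The median log2 fold change of the 82 channel genes was 1.55, beside 0.02 for all genes tested. At least 5 CPM was reached by 45 of the 139 genes in neurons and by 28 in progenitors. Lists of 4 values below give null replicates 1 and 2 and then WT replicates 1 and 2.

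**Figure D1:**
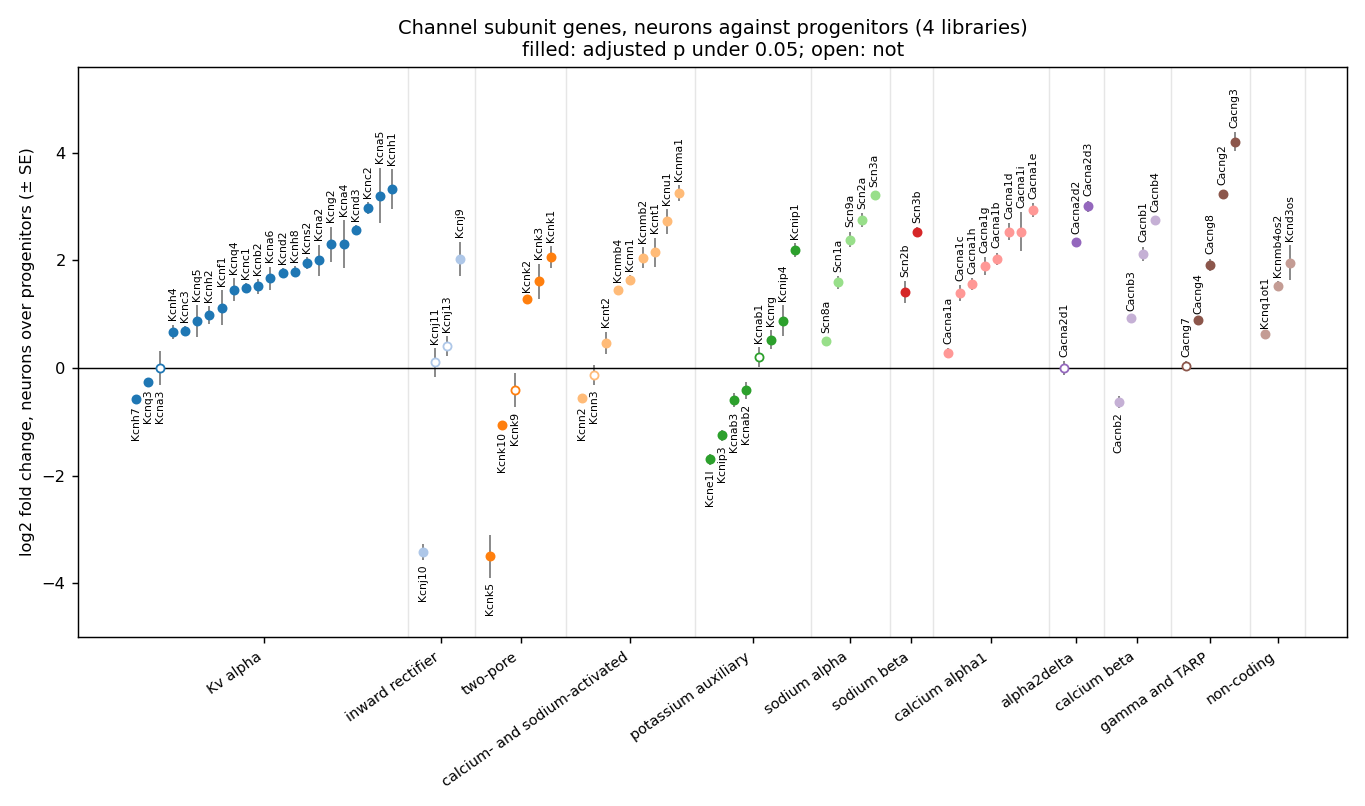
Log2 fold change of neurons over progenitors for tested channel genes, by subfamily (x axis) and with bars for the SE, a few genes not being shown. Filled points passed an adjusted p of 0.05, and all points lie above 0 in the sodium alpha, sodium beta and calcium alpha1 subfamilies, where no gene was lower, and on both sides of 0 among the potassium auxiliary genes.

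All 5 sodium channel alpha subunits that were tested were higher in neurons, and the other 5 of the 10 had too few counts or none. Scn3a, the sodium channel best known from the embryonic brain, stood at 114, 135, 94.8 and 106 CPM in neurons and at 11.1, 14, 9.74 and 12.3 CPM in progenitors. Each neuron value lay above each progenitor value, with a log2 change of 3.22 ± 0.05 (SE, adjusted p = 1.3e-20). In 100 microglia and 169 erythroid cells, which should lack it, Scn3a stood at 9.72 and 3.58 CPM, and in barcodes with under 100 UMIs, which hold free RNA, at 37.2 CPM, and the part of free RNA in the progenitor level was not tested. Scn2a, which carries early action potentials in axons, stood at 11.6, 14.6, 9.93 and 13.5 CPM in neurons against 2.11, 1.67, 1.24 and 2.01 CPM, with a log2 change of 2.75 ± 0.13 (SE, adjusted p = 6.9e-14). Scn9a, known from sensory neurons and the hypothalamus, had 7.96, 8.14, 5.29 and 9.48 CPM in neurons against 1.11, 1.67, 1.18 and 1.93 CPM, a log2 difference of 2.39. Thus all 3 genes separated the classes without overlap in any library. Scn1a, the main sodium channel of mature fast-spiking interneurons, was low, at 8.82, 9.40, 7.38 and 8.23 CPM in neurons and 3.18, 3.30, 1.90 and 2.26 CPM in progenitors, with a log2 change of 1.59 ± 0.12 (SE, adjusted p = 1.4e-10). Scn8a, the channel of the mature axon initial segment and nodes of Ranvier, had the smallest change of the 5, from 17.2 ± 3.31 CPM (SD, n = 4 libraries) in progenitors to 25.0 ± 4.53 CPM in neurons, with a log2 change of 0.51 ± 0.07 (SE, adjusted p = 1.4e-06). The sodium channel genes lie side by side on chromosome 2 (GRCm38), with Scn3a and Scn2a between chr2:65457118-65767447 and Scn1a, Scn9a and Scn7a between chr2:66270778-66784914, and Scn7a alone of these was not tested. Of the 4 beta subunits, 3 were tested and all 3 were higher in neurons. Scn3b, which modulates sodium channel inactivation, stood at 24.1, 28.6, 21.4 and 27.3 CPM in neurons and 3.94, 4.36, 3.79 and 5.16 CPM in progenitors, with a log2 change of 2.53 ± 0.09 (SE, adjusted p = 5.3e-16).

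All 8 tested calcium channel alpha1 subunits of 10, the pores of these channels, were higher in neurons. Cacna1a, among them, differed little between the classes in the WT libraries, as given with the interaction below. Cacna1e, the pore of R-type channels, stood at 13.6, 16.1, 7.19 and 12.8 CPM in neurons against 1.34, 2.08, 1.24 and 1.85 CPM in progenitors, with a log2 change of 2.94 ± 0.13 (SE, adjusted p = 2.9e-14). Cacna1d, an L-type pore that opens near rest, had 5.99, 8.90, 8.36 and 9.56 CPM against 0.612, 1.52, 1.63 and 2.01 CPM, a log2 difference of 2.53. Cacna1b, the pore of N-type channels of presynaptic terminals, had 25.2, 27.8, 17.1 and 17.6 CPM against 4.90, 5.83, 4.71 and 6.04 CPM, a log2 difference of 2.03. The neuron libraries lay above the progenitor libraries for Cacna1e, Cacna1d and Cacna1b. Among the alpha2delta subunits, which carry the pores to the cell surface, Cacna2d3 stood at 22.4, 22.2, 19.7 and 25.1 CPM in neurons against 2.49, 3.60, 2.35 and 2.09 CPM, and Cacna2d2 changed by 2.35 on the log2 scale. Cacna2d1, an alpha2delta subunit bound by gabapentin, did not pass the test, at 4.73 ± 1.86 CPM in neurons and 4.60 ± 1.38 CPM in progenitors (SD, n = 4), a log2 difference of 0.00 ± 0.13 (SE).

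The 4 cytoplasmic beta subunits, which bind the alpha1 pores, were divided. Cacnb4, Cacnb1 and Cacnb3 were higher in neurons, by 2.75, 2.12 and 0.93 on the log2 scale. Cacnb2, in contrast, stood at 4.75, 6.47, 3.53 and 5.51 CPM in neurons and at 7.20, 9.03, 6.47 and 7.82 CPM in progenitors, with a log2 change of -0.63 ± 0.11 (SE, adjusted p = 1.9e-05). Each library was thus higher in progenitors for Cacnb2 and in neurons for the other beta subunits. Of the gamma subunits, most of which are TARPs that traffic AMPA receptors rather than gate calcium channels, 5 of 8 were tested and 4 were higher in neurons. Cacng3 had 10.53, 10.0, 9.41 and 9.56 CPM in neurons and 0.306, 0.659, 0.654 and 0.564 CPM in progenitors, with a log2 change of 4.20 ± 0.18 (SE, adjusted p = 1.3e-14). Cacng2, or stargazin, changed by 3.23 and Cacng8 by 1.92 on the log2 scale. Cacng7 did not pass the test, with a log2 difference of 0.05.

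Among the 40 pore-forming subunits of voltage-gated potassium channels (Kv), 24 were tested, of which 20 were higher in neurons and 3 were lower. Kcnc2, a Kv3 channel of fast-spiking neurons, stood at 14.6, 20.1, 14.8 and 13.4 CPM in neurons and 1.99, 2.38, 1.37 and 2.01 CPM in progenitors, with a log2 change of 2.97 ± 0.11 (SE, adjusted p = 2.9e-15). Kcnd3, a Kv4 channel of the transient A-type current, had 30.4, 39.4, 29.3 and 31.4 CPM against 4.17, 7.46, 4.12 and 5.96 CPM, a log2 difference of 2.57. Both rose in all 4 libraries. Kcnq3, a subunit of the M-current, which limits repetitive firing, went the other way, at 23.8, 30.5, 19.7 and 19.4 CPM in neurons against 26.8, 35.7, 21.4 and 24.9 CPM in progenitors, with a log2 change of -0.26 ± 0.06 (SE, adjusted p = 4.3e-04). Each library was lower in its neurons than in its own progenitors, although the classes overlap across libraries, and without the library as a block the difference no longer passed the test. Kcnh7, a channel of the ether-a-go-go-related (Erg) type, fell by 0.58 on the log2 scale in neurons.

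**Figure D2:**
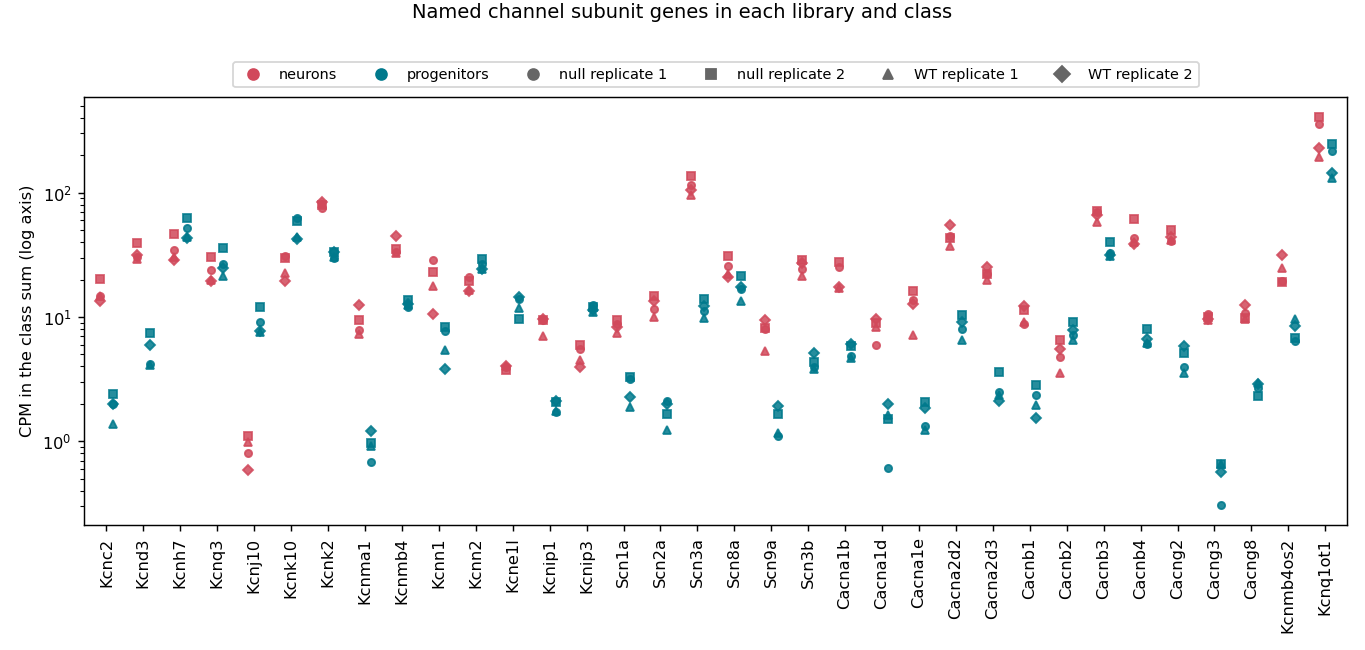
Level of the named channel genes (x axis) in neurons and progenitors in CPM on a log axis, with 1 point for each class and library. For Scn3a, Cacng3 and Kcnj10 the neuron and progenitor libraries stand apart without overlap, and for Kcnq3 they intermingle.

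Inwardly rectifying and two-pore potassium channels, which set the resting potential, were mostly not tested, being under the filter or without UMIs. Of 15 inward rectifiers, 4 were tested, with 1 higher in neurons, 1 lower, and Kcnj11 and Kcnj13 not past the test. Kcnj10, or Kir4.1, the glial channel that buffers potassium, stood at 0.814, 1.11, 0.980 and 0.588 CPM in neurons and 9.07, 12, 7.52 and 7.65 CPM in progenitors, with a log2 change of -3.41 ± 0.15 (SE, adjusted p = 2.3e-14). Kcnj9, its neighbour on chromosome 1 and a G-protein-gated Kir3 channel, was higher in neurons, which made this pair the only one of 10 runs of neighbouring channel genes with 2 or more tested members to hold calls in both directions. Among 14 two-pore channels, 6 were tested, with 3 higher in neurons and 2 lower. Kcnk2 (TREK-1, a mechanically gated leak channel) was 1.29 higher on the log2 scale. Kcnk10 (TREK-2), a close paralogue, had 30.7, 29.8, 22.6 and 19.6 CPM in neurons against 62.8, 59.0, 44.0 and 42.1 CPM, and fell by 1.06. Free RNA held Kcnk10 at 27.3 CPM, near its neuron level, while microglia and erythroid cells held it at 4.49 and 2.56 CPM. The part of free RNA in its neuron level was not tested. The paralogues were thus split between the classes, and Kcnk5, at a lower level, fell by 3.50 in neurons. Of the 12 calcium- and sodium-activated potassium channel genes, 9 were tested and 7 were higher in neurons. Kcnma1, the pore of the large-conductance BK channel, stood at 7.79, 9.40, 7.32 and 12.4 CPM in neurons and 0.689, 0.964, 0.916 and 1.21 CPM in progenitors, with a log2 change of 3.25 ± 0.15 (SE, adjusted p = 3.9e-14). Kcnmb4, a brain BK beta subunit, changed by 1.45 and Kcnn1, the small-conductance channel SK1, by 1.64. Kcnn2, or SK2, fell by 0.56 on the log2 scale.

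The 13 auxiliary and regulatory potassium channel genes showed no common direction, with 3 of 8 tested higher in neurons and 4 lower. Kcnip1, a calcium-binding partner of Kv4 channels, stood at 9.46, 9.40, 7.06 and 9.70 CPM in neurons against 1.72, 2.08, 1.77 and 2.09 CPM in progenitors, with a log2 change of 2.19 ± 0.13 (SE, adjusted p = 2.2e-12). Kcnip3, of the same family and also known as the transcriptional repressor DREAM, had 5.52, 5.97, 4.51 and 3.97 CPM against 12.5, 12, 10.9 and 11.3 CPM, with a log2 change of -1.25 ± 0.10 (SE, adjusted p = 6.1e-10). Kcne1l, an X-linked single-pass subunit of the Kcne family, fell by 1.70, and the Kv beta subunits Kcnab3 and Kcnab2 fell by 0.59 and 0.41. The median over the 8 was -0.10, beside 1.59 for the 24 Kv pores tested. Of the non-coding transcripts, 3 of 5 were tested and were higher in neurons. Kcnq1ot1, the long antisense RNA that silences its imprinted neighbours on the paternal chromosome, stood at 357, 406, 194 and 226 CPM in neurons and 214, 247, 131 and 144 CPM in progenitors, with a log2 change of 0.63 ± 0.04 (SE, adjusted p = 1.2e-11). Kcnmb4os2 changed by 1.53 and overlaps the start of Kcnmb4 on the opposite strand, with RefSeq starts 360 bases apart. Whether the counting used strand was not given in the sources used here, so reads of antisense partners (Kcnmb4 and Kcnmb4os2, Kcnd3 and Kcnd3os, Kcnab3 and Kcnab3os, Kcnq1 and Kcnq1ot1) cannot be told apart where they overlap.

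Promoters were searched for the element bound by Rest, a repressor of neuronal genes outside neurons, since channel genes are among its known targets. RefSeq promoters of 300 bases (GRCm38.p6, 250 before and 50 after the start) were matched for 102 of the 139 genes. 1 of the 2 arms of that element, TTCAGCACC or GGACAGCGC on either strand, was in 2 of 102 (1.96%), Kcnh6 and Kcnj4, and in 240 of 27025 promoters of all genes (0.888%). Neither Kcnh6 nor Kcnj4 passed the filter on low counts. None of the 46 matched genes that were higher in neurons and none of the 8 that were lower held one. Both windows with an arm (in capitals) and the window upstream of Kcnmb4os2, which starts inside the Kcnmb4 gene, are shown on the gene's own strand, the last because both Kcnmb4 and Kcnmb4os2 were higher in neurons and highest in the same subtype.
Kcnh6 chr11:106007932-106008000 (+): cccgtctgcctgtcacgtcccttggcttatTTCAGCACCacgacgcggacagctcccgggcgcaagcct
Kcnj4 chr15:79505329-79505397 (−): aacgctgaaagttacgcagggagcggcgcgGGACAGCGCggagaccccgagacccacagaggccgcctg
Kcnmb4os2 chr10:116472913-116473162 (+): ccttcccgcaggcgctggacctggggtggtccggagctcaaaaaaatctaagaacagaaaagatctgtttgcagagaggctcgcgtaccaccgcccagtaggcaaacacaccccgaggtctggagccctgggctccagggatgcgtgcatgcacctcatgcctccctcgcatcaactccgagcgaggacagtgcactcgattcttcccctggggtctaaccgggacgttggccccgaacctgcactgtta

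Genes that work with these channels were read in the same comparison. Of 44 tested genes from a list of 46 channel partners, other channels, pumps and calcium store genes, 24 were higher in neurons and 15 were lower. Ank3 (ankyrin G), which anchors sodium channels at the axon initial segment, stood at 236, 299, 191 and 209 CPM in neurons against 33.0, 46.3, 24.7 and 35.1 CPM in progenitors, a log2 change of 2.72 ± 0.05 (SE, adjusted p = 2.4e-20). Rest was lower in neurons, at -1.32 ± 0.08 (adjusted p = 7.3e-12). The chloride transporters that set the direction of GABA responses went opposite ways, with Slc12a5 (KCC2) at 1.28 ± 0.12 and Slc12a2 (NKCC1) at -1.23 ± 0.06 on the log2 scale.

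Clusters of neurons or progenitors were named only where a marker list matched, and otherwise keep a number. A gene is given as higher in a subtype where its mean was at least 5 CPM and it was at least 2-fold above the other cells of its class in every library with 20 or more cells of the subtype, for subtypes with 3 or more such libraries. These are descriptions without a test, because the clusters were made from the same cells, although no channel gene was used to make them. A gene enters a subtype's count only if its mean there reaches 5 CPM, so genes that are low elsewhere, such as Kcnj6 and Cacna1i, enter where they are high and had to be higher there. The shares given for subtypes are therefore descriptions of the genes that entered, and nothing about channel genes as a group is read from them. Over all subtypes, 100 of 1142 pairs of a channel gene and a subtype were higher, or 8.76%, against 1.78% of the pairs of all genes.

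**Figure D3:**
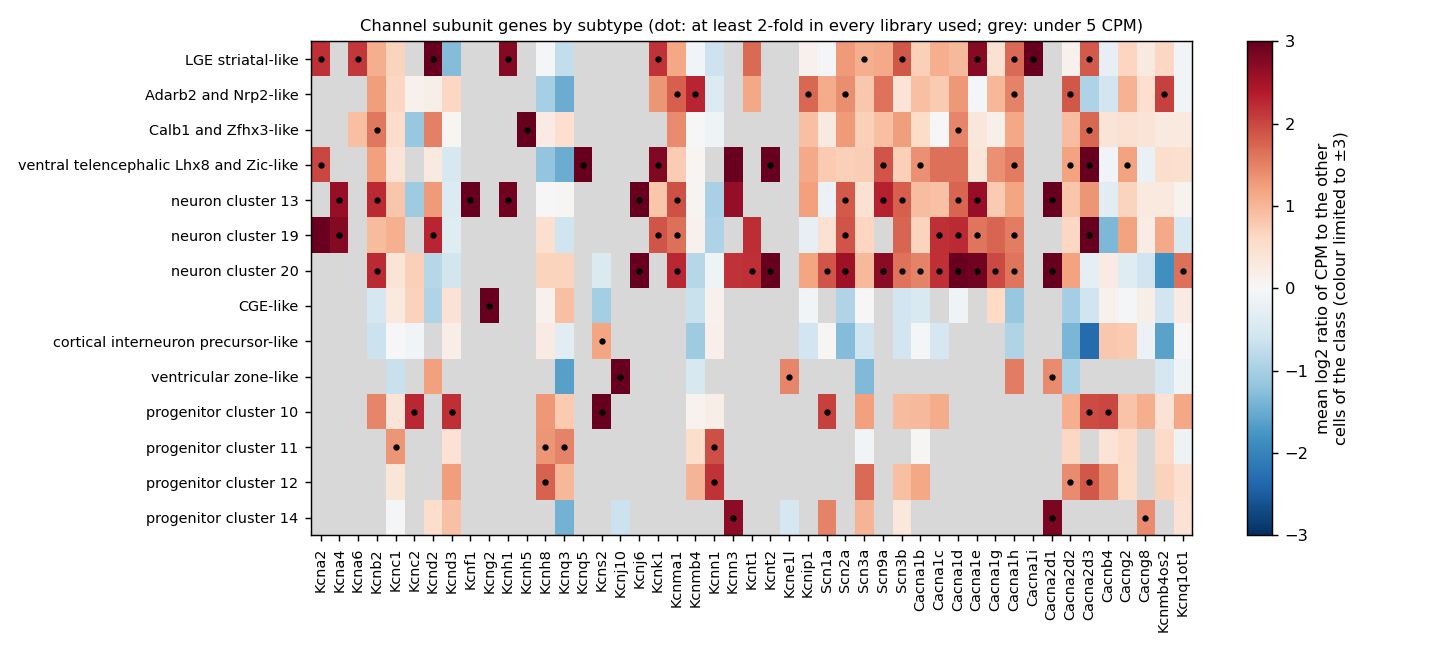
Log2 ratio of channel gene levels in each subtype to the other cells of its class, averaged over libraries and limited to ±3, with dots for genes at least 2-fold higher in every library used and grey for means under 5 CPM. Neuron cluster 20 has the most dots of the subtypes shown, and Cacna2d1 is raised in neuron clusters 13 and 20 and, among progenitors, in ventricular zone-like cells and cluster 14.

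LGE striatal-like neurons (877 cells) had 11 of 50 channel genes higher, against 3.86% of all genes tested there. Cacna1i, a T-type calcium pore that opens at low voltage, stood at 4.09, 6.26, 4.85 and 5.04 CPM, 6.35 to 11.2 times the other neurons. Kcnd2 (Kv4.2) stood at 56.5, 81.8, 76.2 and 77.6 CPM, 6.28 to 11.4 times. Cacna1e was 5.35 to 8.92 times and Kcnh1, a channel of the ether-a-go-go type, 4.76 to 10.53 times the other neurons. Adarb2 and Nrp2-like neurons (698 cells) had 7 of 49 genes higher (4.18% of all genes there). Kcnmb4 stood there at 127, 136, 133 and 149 CPM, 4.57 to 5.24 times the other neurons, and its pore partner Kcnma1 at 26.2, 33.4, 21.4 and 27.4 CPM, 2.67 to 4.15 times. Pore and beta subunit of the BK channel were therefore both on the list of this subtype, and so was Cacna2d2 at 3.0 to 4.28 times. Kcnmb4os2 was 3.36 to 5.06 times the other neurons, with the limit on strand given above. Calb1 and Zfhx3-like neurons (349 cells) had 4 of 48 genes higher (2.18% of all genes there): Kcnh5 at 10.8, 6.81, 2.0 and 6.64 CPM, Cacna2d3, Cacna1d and Kcnb2. Kcnh5 rested on 8, 5, 1 and 4 UMIs.

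The ventral telencephalic Lhx8 and Zic-like neurons (106 cells, 3 libraries) had 10 of 50 genes higher (4.36% of all genes there), several of them on few UMIs. Cacna2d3 stood at 200.2, 174 and 187 CPM from 29, 33 and 63 UMIs in the libraries used, 8.90 to 9.82 times the other neurons, whereas Kcnq5 rested on 2, 2 and 2 UMIs. CGE-like neurons had 1 of 43 genes higher (0.822% of all genes there), Kcng2, a silent Kv subunit that does not form channels alone. Cortical interneuron precursor-like neurons, the largest named group (1653 cells), had 1 of 40 (0.704%), the silent subunit Kcns2 at 19, 25.0, 20.8 and 17.6 CPM, 2.04 to 2.55 times the other neurons.

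The longest lists were those of neuron clusters 20 and 13, which stay unnamed. Neuron cluster 20 (108 cells, 3 libraries), led by Snhg11, Pfkp and Meg3, had 18 of 57 genes higher (5% of all genes there). Cacna2d1 and Cacna1e are themselves among its leading genes, and Cacna2d1 stood at 108, 78.0 and 41.9 CPM, 11.7 to 20.2 times the other neurons. Kcnj6 (GIRK2), a G-protein-gated inward rectifier, was 7.54 to 30.5 times and the sodium-activated Kcnt2 5.41 to 12 times the other neurons. The cluster held 143245 to 278047 UMIs per library, so Kcnj6 and Kcnt2 rest on few UMIs there. Scn2a, Scn9a and Scn1a were all on its list, with Scn2a at 53.9, 72.8 and 97.7 CPM. Neuron cluster 13 (301 cells), led by Neurod6, Nr2f2 and Neurod2, had 12 of 56 higher (4.99% of all genes there), again with Cacna2d1 at 75.7, 102, 61.1 and 42.9 CPM and Kcnj6 at 4.52, 9.92, 3.82 and 5.14 CPM. Kcnf1, a silent Kv subunit, was 4.06 to 14.4 times the other neurons. This cluster held 261968 to 884678 UMIs per library, so Kcnj6 and Kcnf1 rest on few UMIs there. Neuron cluster 19 (169 cells), led by Six3, Six3os1 and Tshz2, had 10 of 51 (2.79% of all genes there), with Cacna2d3 at 194, 187, 180.3 and 140.0 CPM. The A-type pores Kcna4 and Kcnd2 were 4.08 to 15.4 and 3.24 to 8.63 times the other neurons. Cluster 19 held 235779 to 375783 UMIs per library, so Kcna4 rests on few UMIs there. Across the 19 neuron subtypes with 3 or more libraries, the mean level of Scn3a ran from 26.0 CPM in neuron cluster 4, whose leading genes Cenpa, Ube2c and Cenpf are those of dividing cells, to 238 CPM in neuron cluster 20, and Kcnq1ot1 ran from 24.7 to 1056 CPM between neuron cluster 18 and neuron cluster 20. Smaller lists of 1 gene were Kcnc2 in neuron cluster 9 (1 of 46, 0.774% of all genes there) and Kcns2 in cluster 5 (1 of 36, 0.229%). In cluster 17 the gene was Kcnq3 (1 of 32, 1.16%).

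Among progenitors, ventricular zone-like cells (1638 cells), the radial glia that line the ventricle, had 3 of 26 genes higher (5.82% of all genes there). Kcnj10 stood at 23.8, 37.3, 19.4 and 23.0 CPM, 7.09 to 10.1 times the other progenitors, Cacna2d1 at 10.9, 9.86, 7.20 and 5.90 CPM, 2.31 to 3.13 times, and Kcne1l at 27.4, 19, 23.0 and 23.3 CPM, 2.08 to 3.22 times. Cacna2d1 was thus on the lists of ventricular zone-like cells, progenitor cluster 14 and neuron clusters 13 and 20, though it did not pass the test between the classes as wholes. Progenitor cluster 10 (330 cells), led by Maf, Plxna4 and Erbb4, with Gad1 and no progenitor marker among its leading genes, had 6 of 37 higher (2.22% of all genes there), among them Kcns2, Cacnb4, Kcnc2 and Kcnd3. These genes were also higher in neurons than in progenitors, and how far this cluster holds neurons was not tested. Kcnc2 stood there at 9.09, 6.93, 9.26 and 6.03 CPM, 3.17 to 8.10 times the other progenitors. Clusters 11 and 12, both with St18 among their leading genes, shared Kcnn1 and Kcnh8 on their lists of 4 of 29 genes (0.713% of all genes there) and 5 of 30 (1.54%). Kcnn1 stood at 23.9, 24.0, 20.3 and 16.2 CPM in cluster 11 and 39.9, 29.8, 31.9 and 9.52 CPM in cluster 12. The genes on the list of cluster 12 were also higher in neurons than in progenitors. Npy and Gad1 are among its leading genes, and how far it holds neurons was not tested. Cluster 8 (381 cells), also with St18 among its leading genes, had neither Kcnn1 nor Kcnh8 on its list. That list held 1 of 30 genes (0.624%), Kcnq3. Cluster 14 (3 libraries), led by Dio3, Hhip and Nkx6-2, had 3 of 27 (3.02%), the SK3 channel Kcnn3, Cacna2d1 and Cacng8.

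No channel gene differed between genotypes after adjustment. In neurons 0 of 90 tested channel genes passed (edgeR quasi-likelihood F-test, adjusted p under 0.05), where 0.0511% of all genes passed, and 9 of 90 had an unadjusted p under 0.05, against 16.8% of all genes. In progenitors 0 of 67 passed, where 0.0741% of all genes did, and 10 had an unadjusted p under 0.05, against 16.9%. DESeq2 called 1 channel gene in each class, Kcnq1ot1. In neurons it called 0.307% of all genes higher in null and 1.94% lower, and in progenitors 0.185% and 1.99%. Kcnq1ot1 was also called in progenitors by edgeR when progenitor clusters 10, 12, 16 and 17 were left out. That choice was made after seeing the data, and the adjusted p was 0.0499, just under the threshold. Over the alternatives in progenitors its adjusted p ran from 1.1e-21 without null replicate 1 to 0.878 without WT replicate 1. Leaving out single libraries moved the number of channel genes called in both classes. The share of all genes called in those fits is not given, so nothing about channel genes is read from them. Each of these fits leaves 1 genotype with a single library, which is assumed to vary like the libraries of the other genotype. On CPM scaled by TMM, the null and WT libraries did not overlap for 41 of 90 genes in neurons (29 above WT and 12 below), against 51.5% of all genes, and for 32 of 67 in progenitors (18 above and 14 below), against 51.7%. The share of channel genes whose groups stood apart was thus not above that of all genes. Scaling by library totals in place of TMM moved the median of all genes by 0.15 in neurons and 0.19 in progenitors toward null, and the changes below are on the TMM scale. The libraries also differed in the cells behind the sums. Neuron cluster 5, led by Neb, Maf and Plxna4, held 222 and 365 cells in the null libraries, more than the 88 and 48 of WT. Neuron cluster 1, led by Npy, S100a10 and Rnd2, held 162 and 50 cells in the null libraries, fewer than the 438 and 332 of WT. The part of such shares in the genotype values was not tested beyond the fits with equal numbers of cells from each cluster.

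**Figure D4:**
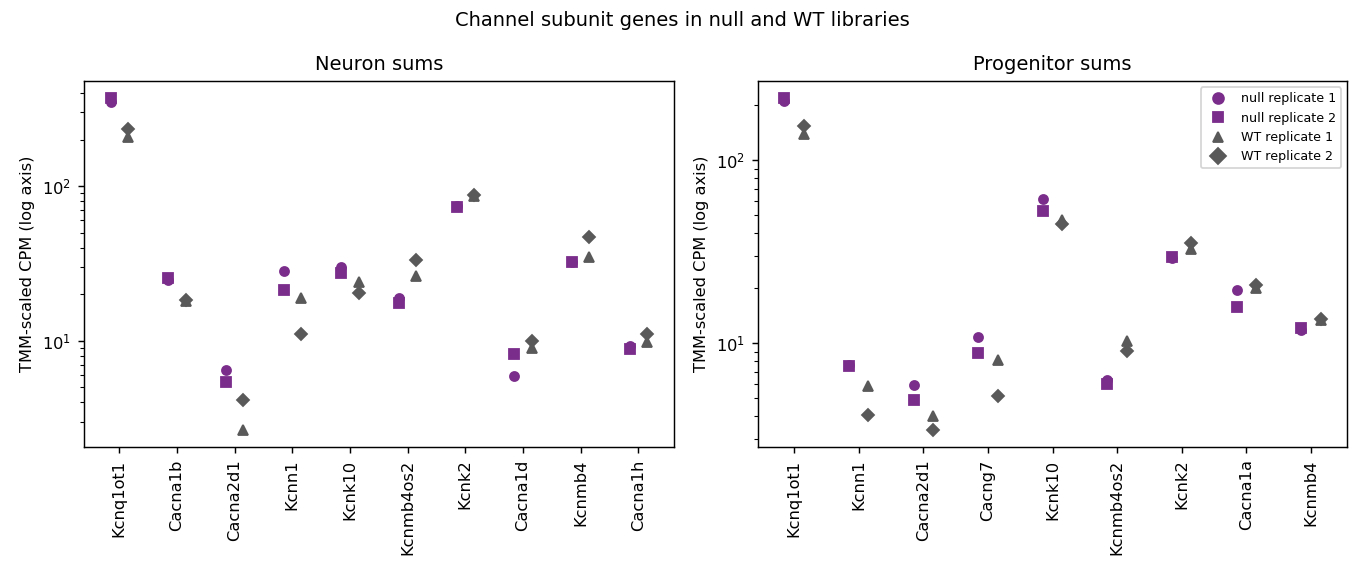
TMM-scaled CPM of the named channel genes on a log axis in null and WT libraries, for neurons (left) and progenitors (right), with 1 point per library. Kcnq1ot1 lies above both WT libraries in both null libraries, and Kcnmb4os2 below them.

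Kcnq1ot1 came nearest to the threshold. Its TMM-scaled level in neurons was 351, 373, 207 and 235, with both null libraries above both WT libraries, and a log2 fold change of null over WT of 0.71 ± 0.12 (SE, adjusted p = 0.077). In progenitors the values were 211, 220.3, 140.0 and 154, and the log2 fold change was 0.56 ± 0.11 (adjusted p = 0.083). Over the 15 alternatives in neurons the change ran from 0.60 to 0.86 and the adjusted p from 9.2e-05 (DESeq2) to 0.437 (without WT replicate 1). In male cells alone it was 0.64, and with equal numbers of cells from each cluster 0.60. Kcnmb4os2 had the opposite sign, with 19.1, 17.6, 26.4 and 33.1 scaled CPM in neurons, a change of -0.69 ± 0.14 (adjusted p = 0.098), and 6.32, 6.02, 10.3 and 9.02 in progenitors, where the change was -0.65 ± 0.16. Its sense partner Kcnmb4 was -0.33 ± 0.15 in neurons and -0.16 ± 0.13 in progenitors, and the progenitor value changed sign with library totals as the scale. Adarb2 and Nrp2-like cells, where both transcripts were highest, made up 4.71% and 5.05% of the neurons in null and 5.75% and 11% in WT, and within them Kcnmb4 stood at 127, 136, 133 and 149 CPM (null replicates 1 and 2, then WT replicates 1 and 2). With equal numbers of cells from each cluster, the neuron change was -0.15 for Kcnmb4 and -0.42 for Kcnmb4os2.

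Other named genes were less separated. Kcnn1 was 0.71 ± 0.23 (unadjusted p = 0.014, adjusted 0.207) in neurons and 0.59 ± 0.20 in progenitors. Cacna1b and Cacna2d1 were 0.46 ± 0.12 and 0.82 ± 0.24 in neurons, with adjusted p of 0.162 and 0.191. In a random draw of equal numbers of cells from each cluster, with the smallest clusters left out, Cacna2d1 was 0.65. Kcnk2 had values below WT in the null libraries, at -0.24 ± 0.11 in neurons and -0.21 ± 0.11 in progenitors (adjusted p = 0.305 and 0.379), while its paralogue Kcnk10 had values above, at 0.37 ± 0.14 and 0.31 ± 0.12. With library totals as the scale, Kcnk2 in progenitors was -0.019. Cacna1h, a T-type pore, and Cacna1d were -0.20 ± 0.15 and -0.43 ± 0.20 in neurons. In progenitors Cacng7 was 0.56 ± 0.22 and Cacna1a, the pore of P/Q-type channels, -0.20 ± 0.14. Of the pathway genes, 43 were tested between genotypes in neurons and 44 in progenitors, and none of these was called.

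The difference between neurons and progenitors was compared between genotypes by the interaction of class and genotype, which called 1 of 92 channel genes against 0.747% of all genes. Cacna1a stood at 25.0, 26.4, 19.5 and 22.1 scaled CPM in neurons and 19.6, 15.8, 20.1 and 20.8 in progenitors. Both null libraries were higher in neurons, while neurons lay slightly below progenitors in WT replicate 1 and slightly above in WT replicate 2. The neuron over progenitor ratio was therefore larger in the null libraries, by 0.55 ± 0.13 on the log2 scale (SE, adjusted p = 0.040). The value fell to 0.32 without null replicate 2, and the call was lost there and also under DESeq2, under library totals, without the filter on low counts, with the doublet-like cells kept and without WT replicate 1.

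Channel genes were also higher in other cell types of the dissection than in neurons and progenitors, and only some of them are named here. In the microglia, the macrophages of the brain, Kcnj8 (Kir6.1, the pore of a vascular KATP channel) stood at 137 CPM from 183 UMIs, and Kcnj2 at 26.2 CPM. Kcnd2, also on the list of LGE striatal-like neurons, stood in 35 oligodendrocyte precursors at 122 CPM from 50 UMIs, none from WT replicate 2. These values come from few cells pooled over the 4 libraries, where 3 UMIs would be 2.24 CPM in microglia and 7.31 CPM in oligodendrocyte precursors.

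**Figure D5:**
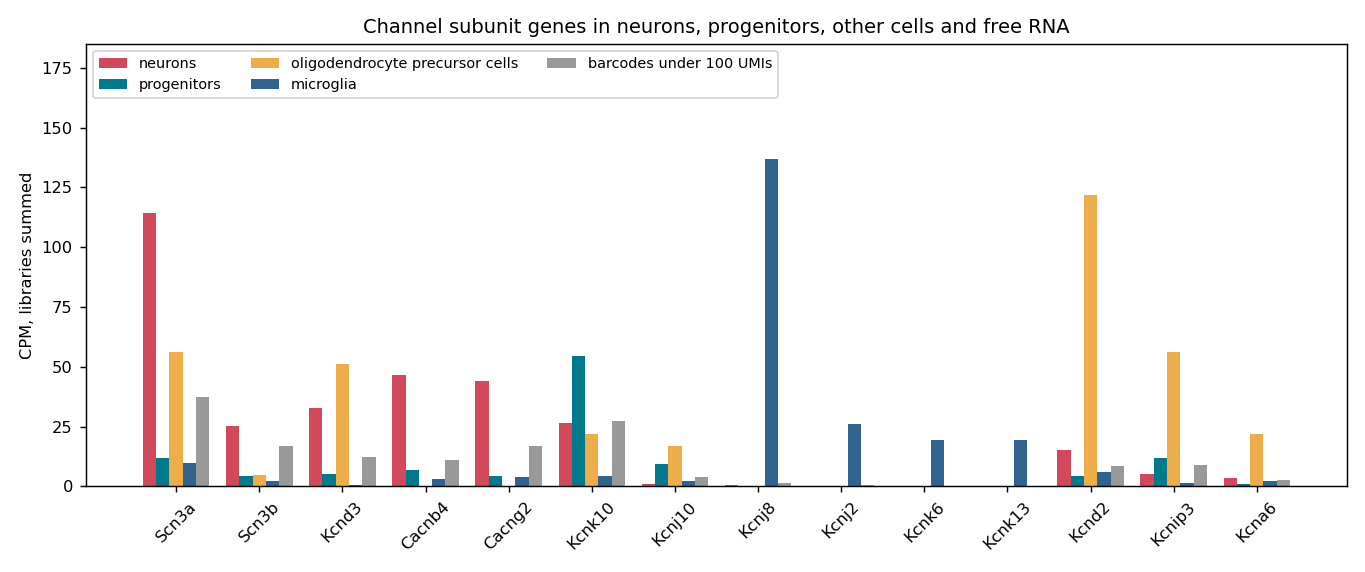
CPM of channel genes over the pooled libraries in neurons, progenitors, oligodendrocyte precursors, microglia and barcodes with under 100 UMIs, 1 bar each. Kcnj8 in microglia (137 CPM) and Kcnd2 in oligodendrocyte precursors (122 CPM) stand above the other bars of those genes.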

How the data were processed

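The authors aligned and quantified the 10x Genomics reads with Cell Ranger (5.0.1 on GRCm38 per the submitters' processing notes) and deposited 1 unfiltered count matrix per library, with whole UMI counts for every gene in every barcode and no normalization. Every column of the matrices belongs to a sample of the series. Replicate numbers follow the sample order, since the labels carry none.

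Cells needed at least 3000 UMIs, 200 genes and at most 10% mitochondrial UMIs. Scrublet (scanpy 1.11.5) called under 0.5% of cells by its own threshold, so 120 to 352 top-scoring cells per library were removed instead, a share that grew with the number of cells. Library pairs shared 4 to 9 barcodes. Counts were clustered in Seurat 5.3.0 (R 4.3.3) on 2000 variable genes without the channel, Xist, Tsix and Y-linked genes, with 49 principal components and a resolution of 1.4, and neurons and progenitors were clustered again separately. Names came from marker lists. Neurons kept 5 clusters (1717 cells) whose leading genes held more progenitor than neuron markers, which were left out in an alternative. That rule did not use the list of cycling genes or the subtype lists, so neuron cluster 4 (888 cells, led by mitotic genes) and progenitor cluster 10 (330 cells, with Maf, Erbb4 and Gad1) also stayed in their classes, as did progenitor clusters 12, 16 and 17 (265, 108 and 51 cells), which have Npy and Gad1, Isl1 and Meg3, or Snhg11 and Meg3 among their leading genes. Alternatives chosen after seeing the data left out clusters 4 and 10, and then clusters 12, 16 and 17 too.

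For each library, the UMI counts of each class were added up and tested with edgeR 4.0.16 (TMM, filterByExpr, two-sided quasi-likelihood F-test, Benjamini-Hochberg over all genes, adjusted p of 0.05). Neurons and progenitors were compared with the library as a block, and null and WT without covariates. DESeq2 1.42.0 was an alternative. The edgeR fits were run on simulated counts, drawn with 1 fixed dispersion for all genes and no shifts between libraries. That run did not cover cell calling, clustering or subtypes. CPM is per 1000000 UMIs of the sum, and floors of 3 UMIs cover counting error only.

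Named genes were, per subfamily and direction, up to 3 passing genes with at least 5 CPM and the same direction in the 4 libraries, up to 5 genes per direction and class with the smallest p between genotypes whose libraries did not overlap, up to 4 genes per subtype, and Scn1a, Scn2a, Scn3a and Scn8a. Other genes named in the text were chosen after their values were seen. The members and lists were chosen with earlier results of these data known. Positions are from GENCODE M21 (GRCm38), which held all 139 genes. Results of a few genes are not reported here.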

Additional observations from a re-analysis of the deposited data

Results flagged for a closer look

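The neuron over progenitor difference of Cacna1a was 0.55 larger on the log2 scale in the null libraries than in WT (SE 0.13, adjusted p = 0.040, edgeR quasi-likelihood F-test of the interaction). It was flagged because the difference between genotypes was itself tested.

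Several channel genes were flagged in cell classes outside the comparisons, where their pooled CPM was at least 4 times the levels in neurons, progenitors and free RNA. Flagged genes also had over 5 CPM, more than the level of 3 UMIs, and UMIs in at least 3 libraries. In microglia these were Kcnj8 at 137 CPM, Kcnj2 at 26.2 CPM, the two-pore channels Kcnk6 at 19.4 CPM, Kcnk13 at 19.4 CPM and Kcnk12 at 6.73 CPM. In oligodendrocyte precursors they were Kcnd2 at 122 CPM, Kcnip3 at 56.1 CPM and Kcna6 at 21.9 CPM. Kcna6 rested on 9 UMIs there, and WT replicate 2 held no UMI of Kcnd2, Kcnip3 or Kcna6 in these cells. The neuron level compared was that of all neurons pooled, and Kcnd2 and Kcna6 were also on the list of LGE striatal-like neurons. Microglia and oligodendrocyte precursors held 100 and 35 cells over the 4 libraries, and no test between libraries was made.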

How the results depend on the processing

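The count of 74 genes differing between neurons and progenitors stayed between 56 and 84 under the alternatives. Of the named genes of that comparison only Kcnq3 lost its call, without the library as a block, at -0.26. Between genotypes 0 channel genes were called in each class in the main fit. DESeq2 gave 1 in neurons, where 0.307% of all genes were called higher in null and 1.94% lower. It gave 1 in progenitors, against 0.185% and 1.99% of all genes. Library totals in place of TMM gave 4 in neurons, against 2.41% and 0.65%, and 3 in progenitors, against 2.68% and 0.815%. No filter on low counts gave 6 and 4, and thinning each cell to 3000 UMIs gave 1 and 1. The share of all genes is not given for these fits. Leaving out a library gave 0 to 7 in neurons and 0 to 11 in progenitors, where a genotype left with 1 library is assumed to vary like the other. The interaction, with 1 gene called, gave 0 under DESeq2, under library totals, without the filter and with doublet-like cells kept, 2 without clusters led by markers of another class and also 2 with neuron cluster 4 and progenitor cluster 10 left out as well (an alternative chosen after seeing the data, under which 74 genes differed between neurons and progenitors and 0 between genotypes in each class; with progenitor clusters 12, 16 and 17 also left out these counts were 75, 0 in neurons and 1 in progenitors, Kcnq1ot1, and the interaction gave 1), and 0 to 1 when a library was left out. Kcnmb4 in progenitors turned from below to above WT under library totals, at 0.028 on the log2 scale. A minimum of 1.5-fold gave 170 pairs of gene and subtype in place of 100. The cause of these changes was not tested. Where a count from an alternative stands here without the share of all genes, nothing about channel genes as a group is read from it. Null and WT libraries could not be paired because the labels carry no replicate numbers. Some subtype values rest on 1 to 5 UMIs.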
